A study of Mus musculus with 8 samples.

Results

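This report describes 8 genes of renal glucose and ammonia production in the kidney cortex of aged and young mice, out of the 22609 genes counted. They were chosen by function as rows of the count data with the symbols Pck1, Pck2, Pcx, Fbp1 and G6pc (gluconeogenic enzymes), Khk (fructose use), and Glud1 and Glul (glutamate and glutamine metabolism). All 8 were among the 13944 genes that passed the filter on low counts. RNA-Seq was performed on kidney cortex from 4 aged and 4 young male C57BL6 mice, untreated and with one library per mouse, to ask which mRNAs change with age. The labels give an age of 30 months for the aged and about 5 months for the young mice, and the RNA-Seq methods of the paper give the aged mice a slightly higher mean age. No genetic change, agent or diet separates the groups, and neither the feeding state nor the hour of tissue collection is given in the sources used here. Libraries held 14820804 to 19821429 read pairs assigned to genes. The 8 genes took 0.455% to 0.59% of these counts in 7 libraries and 0.961% in aged mouse 1.

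The kidney cortex makes glucose mainly in the proximal tubule, from lactate, glutamine and glycerol, and this production rises in fasting and acidosis. Cytosolic phosphoenolpyruvate carboxykinase (Pck1), fructose-1,6-bisphosphatase (Fbp1) and glucose-6-phosphatase (G6pc) carry the steps that glycolysis cannot run backwards, and pyruvate carboxylase (Pcx) supplies their oxaloacetate. The same cells release ammonium from glutamine, with glutamate dehydrogenase (Glud1) freeing it from glutamate, whereas glutamine synthetase (Glul) binds ammonium again. Ketohexokinase (Khk) admits fructose to the pathway at the triose level.

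The promoters of Pck1 and G6pc are shown because these genes had the largest single-mouse deviation and the largest fold change of the 8, and because they were the ones in which a cAMP response element was found. The motif TTACGTNA was searched on both strands of the RefSeq promoter windows, which begin 250 bases before each gene start, and all 8 genes matched this table. It was present in 0.898% of 32851 windows. Among the 8 genes it lay at -93 to -86 in Pck1 and at -162 to -155 in G6pc, counted from the gene start, and in no window of the other 6. The 250 bases before each start follow in RefSeq's GRCm38.p6 build, plus strand, with this motif in capitals and, in G6pc, also the TATA box motif TATAAA, which 13.6% of windows held.
Pck1, chr2:173152823-173153072: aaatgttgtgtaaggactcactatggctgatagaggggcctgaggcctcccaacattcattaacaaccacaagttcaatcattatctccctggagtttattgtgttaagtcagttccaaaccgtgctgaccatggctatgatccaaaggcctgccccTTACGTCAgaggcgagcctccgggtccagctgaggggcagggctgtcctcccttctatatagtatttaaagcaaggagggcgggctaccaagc
G6pc, chr11:101367466-101367715: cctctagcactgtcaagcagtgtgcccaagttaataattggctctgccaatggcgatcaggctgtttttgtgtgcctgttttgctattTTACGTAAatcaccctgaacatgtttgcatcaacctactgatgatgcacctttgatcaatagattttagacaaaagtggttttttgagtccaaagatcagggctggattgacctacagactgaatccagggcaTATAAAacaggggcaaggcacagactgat

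The capitals mark matches of letters and do not show that a factor was bound. Of the other motifs searched, the FOXO element TGTTTTG was in G6pc and Pck2 and in 6.28% of windows. The HNF1 half-site GTTAAT was in Pck1, Khk and G6pc and in 7.1% of windows, and the E-box CACGTG was in Khk and Pcx and in 7.15% of windows. CCAAT, in 37.4% of windows, was found in Glul, G6pc, Fbp1, Pck2 and Pcx. The glucocorticoid half-site AGAACA (19.0% of windows) and the HNF4 element CAAAGTCCA (0.475%) were in no window of the 8 genes. Bases outside these windows were not searched, so elements further from the gene start would be missed. No motif overlapped another in the printed stretches.

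None of the 8 genes was called changed with age by edgeR when all 8 mice were compared. A gene was called where its fold change exceeded 1.5 and its adjusted p (quasi-likelihood test of edgeR, Benjamini-Hochberg) was under 0.05, and this rule called 2.06% of all genes tested. The adjusted p alone passed 0 of the 8 genes and 2.95% of all genes. At an unadjusted p below 0.05 there were 2 (G6pc and Khk), or 25.5% among all genes. DESeq2 called 1 (G6pc), edgeR with library size only 1 (G6pc) and limma-voom 0. These settings also called more of the 13944 genes than the 287 of the main fit, with 873, 488 and 483. The median log2 fold change of the 8 genes was -0.00101, against 0.0292 over all genes, with 4 positive and 4 negative. In 0 of the 8 genes did every aged mouse lie on one side of every young mouse, which held for 18.9% of all genes.

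The result for Pck1 depended on aged mouse 1, and values are therefore given with and without this mouse. This mouse was singled out by its own values, so p-values without it describe that dependence and are not independent tests. When each mouse was left out in turn, Pck1 passed both thresholds without aged mouse 1, and 3.17% of all genes did so. Pck1, Pcx and Khk then lay below every young mouse in all 3 remaining aged mice, and none of the 8 genes lay above. A separation in either direction was found in 23.9% of all genes. None of the other 7 omissions called any of the 8 genes.

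**Figure D1:**
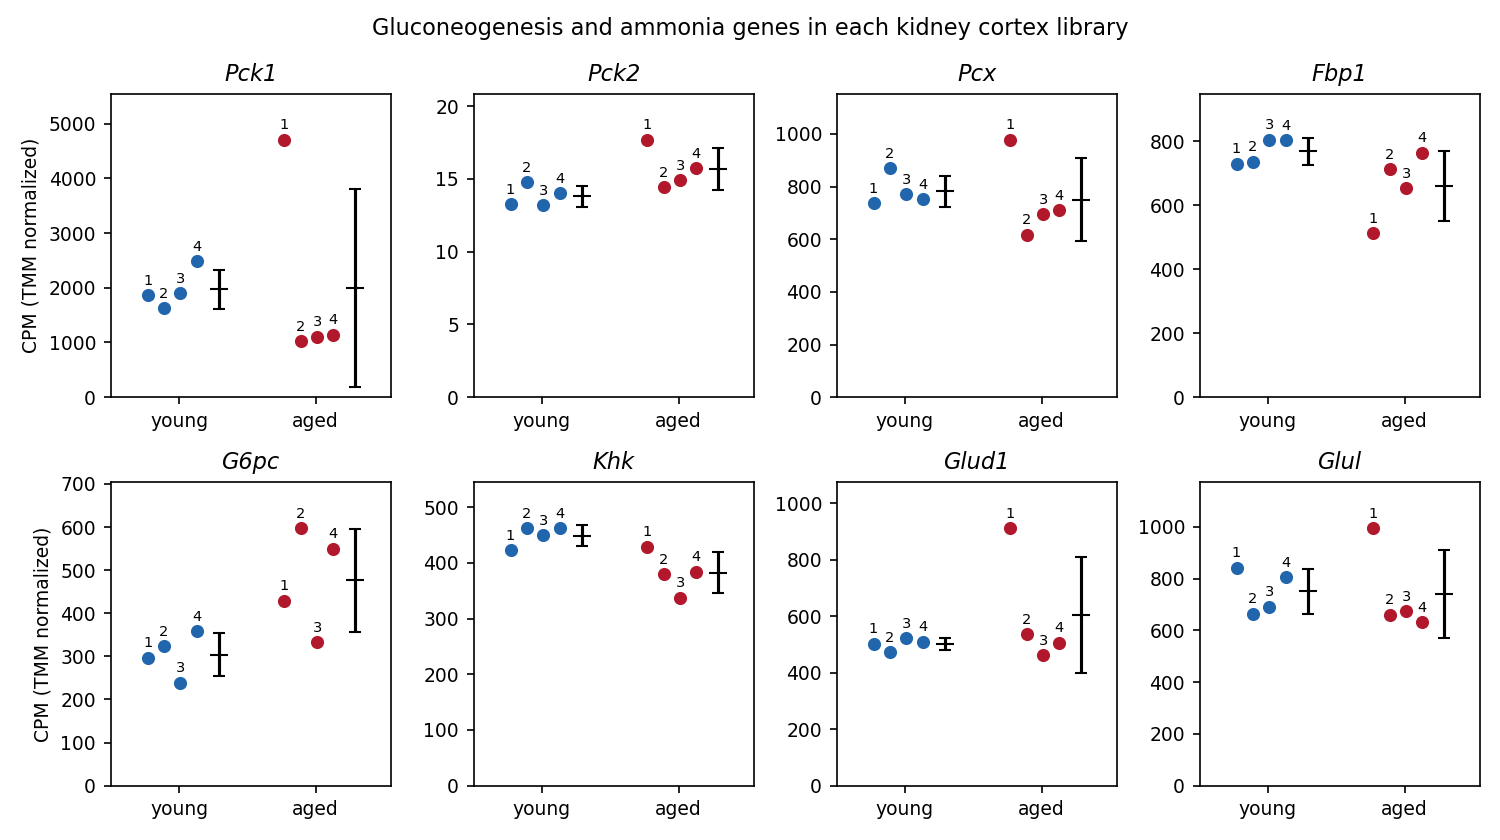
TMM-normalized counts (CPM, y axis, starting at 0) of the 8 genes in young (blue) and aged (red) mice, with the mouse number above each point and the mean and SD (n = 4) as a bar. Aged mouse 1 stands at 4706 CPM of Pck1 while aged mice 2 to 4 lie between 1023 and 1144, below the lowest young mouse at 1631.

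Pck1 (mm9 chromosome 2, 172978549 to 172984774, plus strand) encodes the cytosolic enzyme that turns oxaloacetate into phosphoenolpyruvate. In CPM, the read pairs of a gene scaled to the TMM-normalized library size, it measured 1863, 1631, 1897 and 2484 in young mice 1 to 4 and 4706, 1023, 1103 and 1144 CPM in aged mice 1 to 4. Aged mouse 1 was above every other mouse and the remaining 3 aged mice were below every young mouse, so the aged group spanned the young group on both sides. Aged mice averaged 1994 ± 1809 CPM and young mice 1969 ± 363 CPM (SD, n = 4 each). On the log2 scale the aged to young difference was 0.02 (standard error 0.49, 95% interval -1.09 to 1.12), with an adjusted p of 0.983 from the edgeR test. This interval allows a change of over 1.5-fold in either direction.

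With that mouse left out, the young mice had 1949 ± 360 CPM (SD, n = 4) of Pck1, and the aged mice fell below them to 1079 ± 60.8 CPM (SD, n = 3). Its log2 fold change was then -0.85 (standard error 0.14, 95% interval -1.18 to -0.53, adjusted p = 0.0204, edgeR), so that young mice had 1.81-fold more. With all 8 mice, limma-voom with quality weights per library gave -0.71 and did not pass (adjusted p = 0.111). DESeq2 on all 8 mice gave 0.014 (adjusted p = 0.991). Pck1 alone took 0.504% of the counts of aged mouse 1, against 0.106% to 0.117% in the other aged and 0.156% to 0.237% in the young mice.

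Other groups of genes stood apart in the same mouse. The summed level of 14 tested genes responsive to fasting and glucocorticoids was 7832 CPM in aged mouse 1, 1339 to 1962 CPM in the other aged mice and 1469 to 1616 CPM in young mice. For 12 markers of proximal tubule segments S1 and S2, it was 12680 CPM in aged mouse 1, 23490 to 26750 CPM in the other aged mice and 23340 to 28040 CPM in young mice. Their part in the Pck1 result was not tested.

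Pck2 (chromosome 14, 56159103 to 56168854, plus strand) encodes the mitochondrial form of the same enzyme. It was at 13.3, 14.8, 13.2 and 14.0 CPM in young and at 17.7, 14.4, 14.9 and 15.7 CPM in aged mice. Aged mouse 2 was below young mouse 2, and the other 3 aged mice were above every young mouse. Its log2 fold change was 0.19 (standard error 0.10, 95% interval -0.04 to 0.41, adjusted p = 0.265, edgeR), and the interval lies inside the 1.5-fold limit.

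Pcx (chromosome 19, 4510472 to 4621752, plus strand) encodes the mitochondrial enzyme that carboxylates pyruvate to oxaloacetate. Its levels were 736, 869, 771 and 752 CPM in young and 978, 618, 695 and 711 CPM in aged mice. As with Pck1, aged mouse 1 was the highest and the other 3 aged mice were below every young mouse, though by less. With all mice the aged to young log2 difference was -0.06 (standard error 0.15, adjusted p = 0.821), and it was -0.21 (standard error 0.09, adjusted p = 0.179) without aged mouse 1, both from edgeR. With library size only it was 0.06.

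Fbp1 (chromosome 13, 62966113 to 62989642, minus strand) encodes the enzyme that removes a phosphate from fructose-1,6-bisphosphate. It was at 730.3, 736, 805 and 803 CPM in young and at 513, 713, 654 and 765 CPM in aged mice. Here aged mouse 1 was the lowest of all 8 mice. Aged mouse 4 lay within the young range, and aged mice 2 and 3 lay below it. Fbp1 had a log2 difference of -0.22 (standard error 0.13, 95% interval -0.51 to 0.08, adjusted p = 0.314, edgeR).

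G6pc (chromosome 11, 101228875 to 101239217, plus strand) encodes the catalytic subunit of glucose-6-phosphatase, which frees glucose at the end of the pathway. Young mice had 297, 323, 239 and 358 CPM, and aged mice had 429, 597, 332 and 549 CPM. Aged mice 1, 2 and 4 were above every young mouse, and aged mouse 3 was below young mouse 4. G6pc had the largest fold change of the 8 genes, 1.57-fold higher in aged mice (log2 0.65, standard error 0.20, 95% interval 0.21 to 1.09), but its adjusted p of 0.0942 in the edgeR test did not pass. Its log2 fold change was 0.70 (adjusted p = 0.0768, edgeR) without aged mouse 1. DESeq2 on the same counts gave 0.64 with an adjusted p of 0.0214, and over all alternatives the adjusted p ran from 0.0214 to 0.21.

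Pck1 and G6pc, whose promoter windows are printed above, had the most dissimilar profiles of any pair among the 8 genes. The root mean square difference of their centred log2 CPM over the 8 libraries was 0.889. The closest pair was Pcx and Khk with 0.159. These distances are descriptions over 8 libraries that share the same mice. They are not scaled by a gene's own spread, and Pck1 and G6pc had the largest SDs of the 8 genes (0.731 and 0.448).

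**Figure D2:**
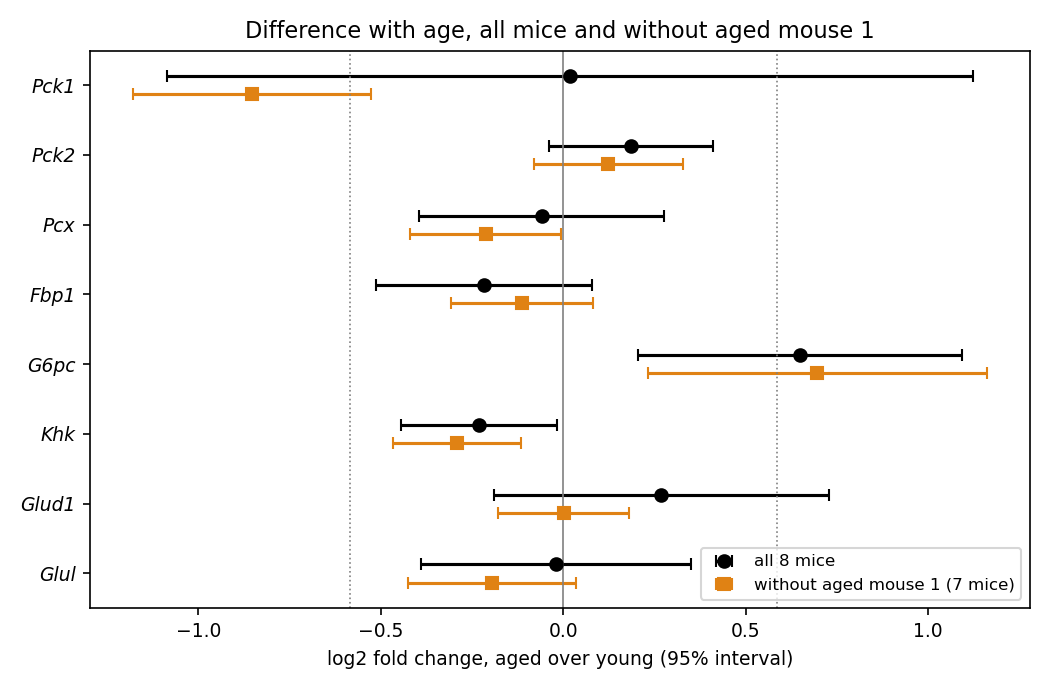
Log2 fold change of each gene, aged over young (x axis), with its 95% interval, for all 8 mice (black circles) and without aged mouse 1 (orange squares), with dotted lines at the 1.5-fold limit. Pck1 moves from 0.02 to -0.85 and is the gene that moves most, whereas G6pc stays at 0.65 and 0.70.

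Khk (chromosome 5, 31223929 to 31233619, plus strand) encodes ketohexokinase, which phosphorylates fructose. The counts are per gene and do not separate its isoforms. It was at 422, 462, 450.1 and 462 CPM in young and at 429, 379.8, 338 and 384 CPM in aged mice. Aged mouse 1 was within the young range and the other 3 were below it. The aged to young log2 difference was -0.23 (standard error 0.09, 95% interval -0.45 to -0.02, adjusted p = 0.17, edgeR). It was -0.29 with an adjusted p of 0.0609 when aged mouse 1 was left out.

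Glud1 (chromosome 14, 35123913 to 35158330, plus strand) encodes glutamate dehydrogenase, which releases ammonium from glutamate in mitochondria. Young mice had 503, 472, 522 and 509 CPM, and aged mice had 911, 536, 463 and 507 CPM. Aged mouse 1 was 1.82-fold above the mean of the other aged mice, which themselves overlapped the young mice. With all mice the log2 difference was 0.27 (standard error 0.20, adjusted p = 0.419), and it was 0.00 (standard error 0.08, 95% interval -0.18 to 0.18) without aged mouse 1, from edgeR.

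Glul (chromosome 1, 155747074 to 155756853, plus strand) encodes glutamine synthetase, which consumes ammonium. It measured 843, 665, 691 and 804 CPM in young and 994, 659.8, 675 and 632 CPM in aged mice. Aged mouse 1 was again the highest of the 8, and aged mouse 3 lay between the young values. Glul had a log2 difference of -0.02 (standard error 0.16, 95% interval -0.39 to 0.35, adjusted p = 0.946, edgeR). The sign of this small difference depended on the scaling, and it was 0.10 with library size only.

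To compare partner genes independently of scaling, count ratios were formed within each library and compared over all 70 orders of the mice with two-sided exact permutation tests, whose smallest possible p was 0.0286. The ratio of Pck1 to Pck2 counts was 140.6, 110.5, 143.8 and 177.5 in young and 266.2, 70.82, 74 and 72.63 in aged mice. Its mean log2 difference, aged minus young, was -0.49 (exact permutation p = 0.343). Without aged mouse 1, the only aged mouse not below every young mouse, the difference was -0.96. Leaving that mouse out sets the exact permutation p at the smallest value allowed there, 0.0286, so this p does not test the difference.

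The ratio of Glud1 to Glul, an ammonium-releasing to an ammonium-consuming enzyme, was 0.597, 0.710, 0.754 and 0.633 in young and 0.917, 0.812, 0.686 and 0.802 in aged mice. Aged mice 1, 2 and 4 were above every young mouse. The mean log2 difference was 0.25 (exact permutation p = 0.0857, and 0.129 after adjustment over the 3 ratios tested). Without aged mouse 1 it was 0.19 (exact permutation p = 0.171).

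**Figure D3:**
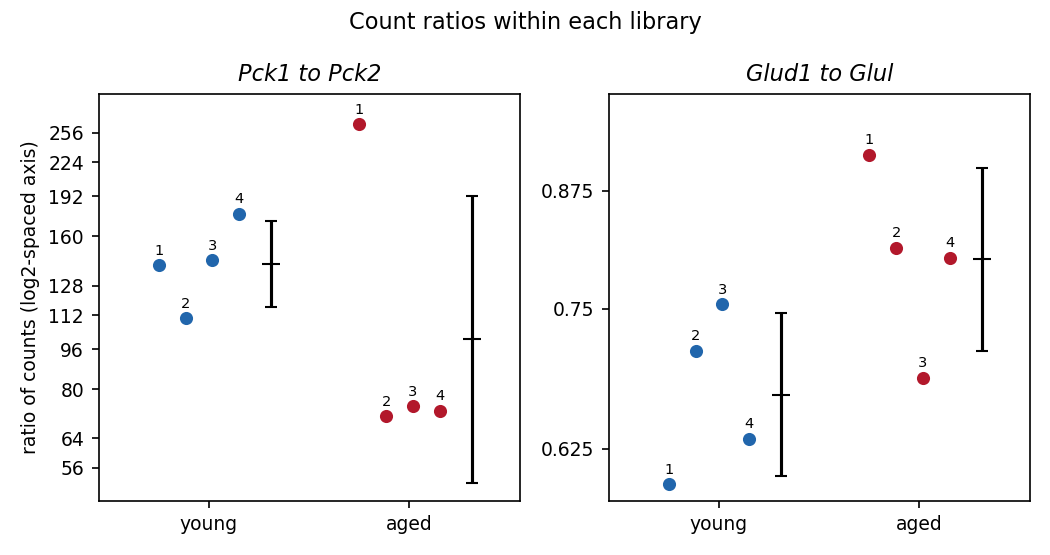
Ratios of raw counts (y axis, log2-spaced) of Pck1 to Pck2 and Glud1 to Glul in young (blue) and aged (red) mice, with the mouse number at each point and the mean and SD of the log2 ratios (n = 4) as a bar. Pck1 to Pck2 is 266.2 in aged mouse 1 and 70.82 to 74 in the other aged mice, all of these below the lowest young value of 110.5.

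Levels were compared between genes per transcript length, as FPKM, which is the normalized CPM divided by the length in kilobases of the longest coding transcript in GENCODE of mm9. In young mice the means were 740 FPKM for Pck1, 520 for Fbp1, 308 for Khk, 269 for Glul, 189 for Pcx, 153 for Glud1, 126 for G6pc and 4.06 for Pck2. The ranges over the 4 young mice of Khk and Glul overlapped, as did those of Glud1 and G6pc, and no other neighbours in this order did. In aged mice Pck1 ranged from 384 to 1769 FPKM and its range overlapped that of Fbp1 (347 to 517). The aged means of Glul (265), Khk (263), G6pc (198), Glud1 (185) and Pcx (181) followed, each overlapping its neighbours, and Pck2 was last at 4.62. G6pc moved from the seventh to the fifth place between young and aged mice and Pcx from the fifth to the seventh, among ranges that overlap in the aged group.

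**Figure D4:**
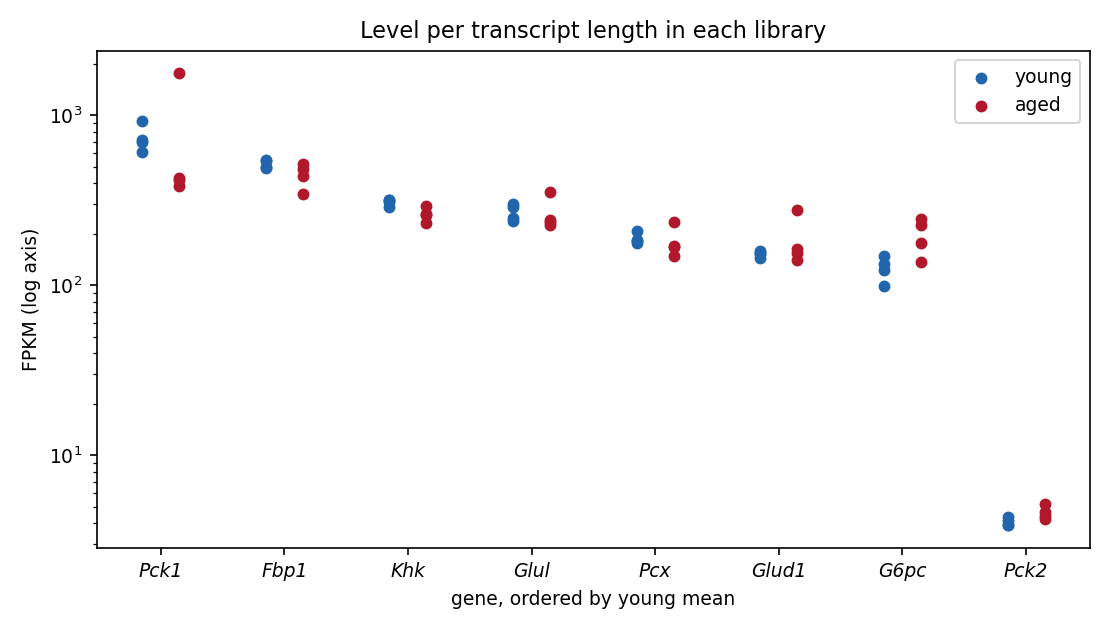
FPKM of the 8 genes (log y axis), 1 point per mouse, young in blue and aged in red, ordered by the young mean. Pck1 reaches 1769 FPKM in aged mouse 1, and Pck2 stays between 3.88 and 5.20 in all mice.

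The remainder of the pathway was read from lists of 131 genes for gluconeogenesis and glycolysis, carbon supply, fructose use, ammonia handling and their regulators, with the 8 genes left out. Of these, 125 could be tested. The rule called 4 genes (3.2%), 1 higher and 3 lower, against the 2.06% of all genes, and 30 genes (24%) did not overlap between groups, against 18.9%. The median log2 fold change of the 125 genes was -0.0774, and that of all genes was 0.0292.

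Among the steps of gluconeogenesis and glycolysis 1 of 27 tested genes was called. This was Fbp2, the muscle form of fructose-1,6-bisphosphatase, which lies 6352 bases from Fbp1 on the same strand in mm9. It was at 11.2, 13.6, 14.6 and 12.9 CPM in young and at 38.0, 39.7, 38.1 and 21.0 CPM in aged mice, so that every aged mouse was above every young one. The log2 difference was 1.38 (standard error 0.20, adjusted p = 0.0206, edgeR), and without any one young mouse the adjusted p exceeded 0.05, up to 0.101. In young mice Fbp2 had 9.88 FPKM beside the 520 FPKM of Fbp1. Neither transcript, nor those of the other 7 genes, had any 100-nt window that recurred at another place of mm9 with 98% identity or more.

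Slc37a4, which carries glucose-6-phosphate to G6pc, was at 234, 258, 226 and 253 CPM in young and at 270.4, 148, 154 and 168 CPM in aged mice. Its log2 difference with all mice was -0.39 (standard error 0.18, adjusted p = 0.222, edgeR). Without aged mouse 1 it was -0.63 (standard error 0.08, adjusted p = 0.0105), where that of G6pc was 0.70. Hk2, a hexokinase that works against G6pc, was at 1.31 ± 0.382 CPM in young and 4.95 ± 3.36 CPM in aged mice (SD, n = 4 each), and its log2 difference of 1.91 did not pass (adjusted p = 0.0611, edgeR). Hk2 did pass with DESeq2 (adjusted p = 0.00212), limma-voom (0.0428), library size only (0.0432) and without aged mouse 1 (0.0478). That of Hk1 was -0.11 (adjusted p = 0.666), and 0.0022 with library size only.

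Of the 33 genes of carbon supply 2 were called, both lower. Malic enzyme Me1 fell from 433 ± 26.9 to 223 ± 78.1 CPM (SD, n = 4 each), a log2 difference of -0.96 (standard error 0.21, adjusted p = 0.0495, edgeR). Pdk3, a kinase that inhibits pyruvate dehydrogenase, fell from 67.2 ± 8.56 to 29.8 ± 12.2 CPM (SD, n = 4 each), a log2 difference of -1.17 (standard error 0.25, adjusted p = 0.0472). Both adjusted p-values were close to the limit and exceeded it without aged mouse 2 or 3 or without any one young mouse, up to 0.134 for Me1 and 0.132 for Pdk3. The adjusted p of Me1 also exceeded it with upper-quartile scaling, either other filter on low counts and robust fitting (0.0503 to 0.0516). The related kinase gene Pdk4, a fasting gene, was at 892 CPM in aged mouse 1 and at 24.9 to 60.8 CPM in the other aged mice, and it was not called (log2 fold change 3.60, adjusted p = 0.0998). The lactate dehydrogenase gene Ldhb and the malate-aspartate genes Mdh1, Got1 and Got2 had log2 fold changes of -0.16, -0.28, 0.00 and 0.06, none past the adjusted p, and that of Got1 was 0.11 with library size only.

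None of the 9 tested genes of fructose and polyol handling was called. The triokinase gene, listed as Dak, and the fructose transporter Slc2a5 were highest in aged mouse 1 at 461 and 134 CPM. In young mice they were at 298 to 354 and 63.1 to 88.0 CPM. In the other aged mice they were at 228 to 264 CPM, below every young mouse, and at 40.2 to 72.6 CPM. Without aged mouse 1 the log2 difference was -0.38 for Dak (adjusted p = 0.0465, edgeR), inside the 1.5-fold limit, and -0.50 for Slc2a5 (adjusted p = 0.159). The basolateral glucose transporter Slc2a2 had a log2 fold change of -0.16 (adjusted p = 0.612, edgeR).

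Of the 24 tested genes of glutamine, glutamate and ammonia handling none passed both thresholds. Slc38a3, which brings glutamine into the proximal tubule, ranged from 13.4 to 52.3 CPM among young mice and was at 123, 35.1, 11.6 and 17.3 CPM in aged mice (log2 fold change 0.50, adjusted p = 0.680, edgeR, and -0.65 without aged mouse 1). The ammonia channel Rhcg and the bicarbonate cotransporter Slc4a4 had log2 fold changes of -0.17 and 0.01.

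The regulators of gluconeogenesis made up 33 of the genes tested. The coactivator Ppargc1a had a log2 fold change of 0.25 (adjusted p = 0.163). Hnf4a, Foxo1 and the glucocorticoid receptor gene Nr3c1 had -0.19, 0.23 and -0.15, and none passed. Foxo1 was at -0.0084 without aged mouse 1. Of the 125 pathway genes 10 (8%) were called without aged mouse 1, 2 higher and 8 lower, against 3.17% of all genes. They included Fbp2 and Hk2, higher, and Slc37a4, Pfkfb3, Me1, Gpd2, Pdk3, Ggt1 and Trib1, lower, of which Pfkfb3, Gpd2, Ggt1 and Trib1 are named after their values were seen.

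The deviation of aged mouse 1 was not confined to the 8 genes. Its log2 CPM exceeded the mean of the other aged mice by 2.11 in Pck1 (4.32-fold, the place 196 among 13944 genes), 0.86 in Glud1, 0.60 in Glul and 0.54 in Pcx. The same difference was -0.47 in Fbp1 and -0.16 in G6pc. Over all genes, 901 (6.46%) exceeded the other aged mice by more than 1, and the median over all genes was -0.0101. The 14 tested genes responsive to fasting and glucocorticoids had a median excess of 2.14 in this mouse. Of these, 1 was called with all mice (Zbtb16, higher in aged).

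Markers of the cells of the cortex were read in the same way. None of the 12 markers of segments S1 and S2 was called. For 7 markers of segment S3 the summed level was 1063 to 3669 CPM in aged and 4111 to 5928 CPM in young mice, with a negative log2 fold change in all 7 (1 called, Slc16a9, lower) and a median of -1.42. None of these markers was at 0 in any library. Among markers of other cells, 1 of 8 immune cell markers was called (Csf1r, lower), where the other 7 had positive log2 fold changes and the median of the 8 was 0.519. None was called of 6 markers for the thick ascending limb, 4 for the distal convoluted tubule, 7 for principal and 6 for intercalated cells, 6 for podocytes, 7 for endothelium or 7 for fibroblasts and smooth muscle. Their part in the results for the 8 genes was not tested, and fewer cells of a type and less RNA per cell cannot be told apart in tissue RNA. The groups also differed in clock genes, with 3 of 15 called higher (Arntl, Npas2 and Nfil3) and 2 lower (Dbp and Nr1d2). Of the genes in this and the preceding paragraph, Zbtb16, Slc16a9, Csf1r, Npas2, Nfil3 and Nr1d2 are named after their values were seen. The log2 difference was 2.73 in Arntl (adjusted p = 0.00142) and -2.63 in Dbp (adjusted p = 0.0141, up to 0.0633 without young mouse 1, 3 or 4), both from edgeR. The part of the clock in the results above was not tested.

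**Figure D5:**
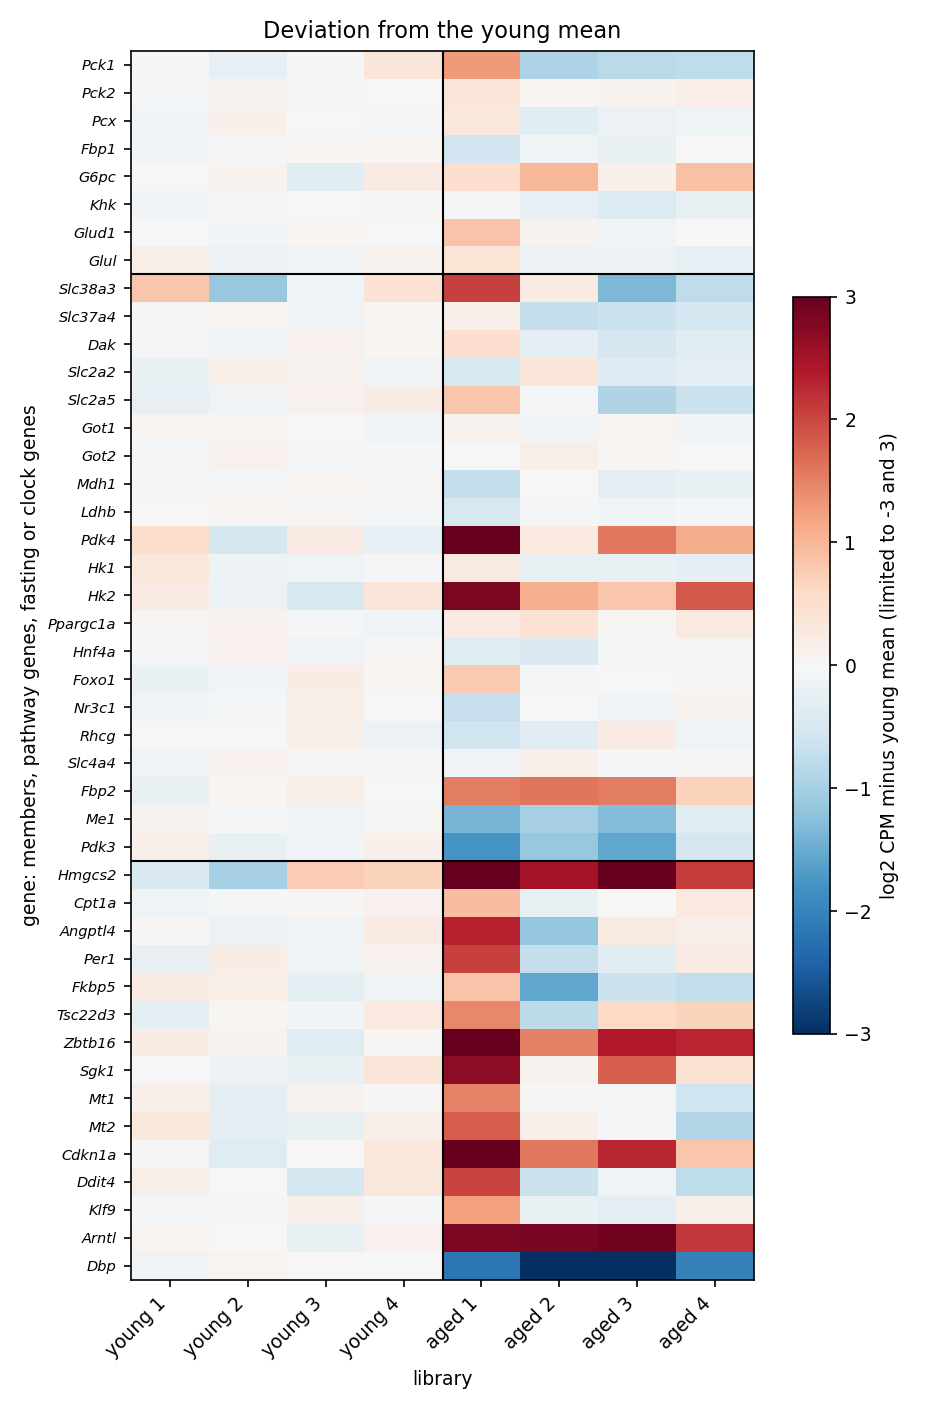
Log2 CPM minus the young mean (colour, limited to -3 and 3) in each of the 8 libraries (columns) for the 8 genes (top block), named pathway genes (middle) and fasting or clock genes (bottom). Aged mouse 1 is red for Pck1, Pdk4 and most fasting genes where aged mice 2 to 4 are paler or blue, and Arntl is red and Dbp blue in all 4 aged mice.

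The genes whose centred log2 CPM over the 8 libraries was closest to that of each gene were listed as a description. For Pck1 they were Maff and Fitm2, with root mean square differences of 0.21 and 0.216 beside the SD of 0.731 of Pck1 itself. For G6pc they were Relt and Rundc3b (0.152 and 0.158, SD 0.448). Pck2 was closest to Rcor3 and Zc3h13, Pcx to Fam65b and Nbeal2, Fbp1 to Bmp7 and Sucla2, Khk to Hyal2 and Mtmr10, Glud1 to Tmprss2 and Rbpms, and Glul to Epha4 and Fzd4. No gene came as near to Pck1 or G6pc as the closest gene of Fbp1 did (Bmp7, 0.0387). The differences are not scaled by a gene's own spread, and the SD of Fbp1 was smaller, 0.212.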

How the data were processed

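The authors depleted ribosomal RNA, made stranded libraries, aligned read pairs with TopHat2 to mm9, counted them by strand on RefSeq genes with HTSeq and deposited raw counts per gene. The submitters' processing notes also name CASAVA 1.8.2 and SAMtools. The other versions are not given in the sources used here. Each library's own table was used, and a joint table was not. The 5 rows that name no gene were left out. They held pairs on no gene (20% to 29.9% of a library), pairs aligned to several places (34.3% to 39.1%) and ambiguous pairs (at most 0.346%). Groups and mouse numbers came from the sample labels.

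The 8 genes, the lists, the tests and the genes named were chosen with earlier results of these data known. The genes named were the 8, fixed pathway genes, every pathway gene with an adjusted p below 0.05, the 2 closest genes in profile of each of the 8, and Arntl and Dbp. Results for 3 of these genes and 1 ratio are not reported here, and counts over lists include them. Counts were analyzed in R 4.3.3 with edgeR 4.0.16 (TMM, filterByExpr minimum count 10, quasi-likelihood test, no covariate) over all 8 libraries, with Benjamini-Hochberg adjustment over 13944 genes. CPM are TMM-normalized, and log2 CPM used a prior count of 2. A floor of 3 counts, for counting error alone, was 0.151 to 0.202 CPM. Every pair of libraries differed by more than counting noise. The labels do not say whether mice shared a litter, cage or day, and p-values measure the spread between these mice.

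Alternatives were DESeq2 1.42.0, limma-voom (3.58.1) with quality weights, robust fitting, other scalings and filters, a replicate block, and each mouse left out. The DESeq of the paper's methods and its FPKM criterion were not used. Scripts were tested on simulated data. Gene coordinates and transcript lengths came from GENCODE of NCBIM37 (mm9), near-identical copies from blastn 2.17.0, and promoters from RefSeq in GRCm38.p6, whose coordinates are not those of mm9.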

Additional observations from a re-analysis of the deposited data

Results flagged for a closer look

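In each group of 4 mice the gap of the highest or lowest mouse to its neighbour was divided by the range, and results above Dixon's 95% critical value for 4 samples are given here. Of 66 groups tested 14 passed, where chance gives about 3.3. The 14 are not separate results, because most concern aged mouse 1 and the ratio of Pck1 to Pck2 repeats Pck1. The genes were also chosen with earlier results known.

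Aged mouse 1 was the highest of its group for Pck1 (gap ratio 0.967), Glul (0.882) and Glud1 (0.837) among the 8 genes. It was also the highest for Pdk4 (0.959), Foxo1 (0.907), Hk1 (0.899), Dak (0.843) and Slc37a4 (0.839), and the lowest for Ldhb (0.94). The log2 ratio of Pck1 to Pck2 was highest in aged mouse 1 as well (0.967).

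The other 4 results concerned other mice. Fbp2 and Arntl were lowest in aged mouse 4 (0.908 and 0.883), Slc2a2 was highest in aged mouse 2 (0.83), and Got2 was highest in young mouse 2 (0.839).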

How the results depend on the processing

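Among all genes 287 were called, and 488 with library size only, 873 with DESeq2, 483 with limma-voom, and 8 (without young mouse 1) to 733 (without aged mouse 4) with a mouse left out. Of the 8 genes 0 were called, 1 with library size only (G6pc), 1 with DESeq2 (G6pc), and 0 to 1 with a mouse left out (Pck1, without aged mouse 1). Of the pathway genes 4 were called, 15 with DESeq2, 11 with limma-voom, and 0 to 11 with a mouse left out. With library size only the median over all genes shifted from 0.0292 to 0.139 (log2) and the share of calls that were higher rose from 56.8% to 75.4%.

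Log2 fold changes that turned their sign were those of Glul (0.0202 with upper-quartile scaling, 0.0959 with library size only), Slc2a5 (0.0127 and 0.0907), Got1 (0.0392 and 0.113, and 0.0052 with at least 10 counts in every library), Pcx (0.0554), Dak (0.0144) and Hk1 (0.0022), each with library size only, and Pck1 (-0.71) and Slc38a3 (-0.47) with limma-voom. With a mouse left out, the ranges of the genes that turned were -0.85 to 0.23 for Pck1, -0.21 to 0.0228 for Pcx, -0.195 to 0.0479 for Glul, -0.65 to 0.82 for Slc38a3, -0.50 to 0.17 for Slc2a5, -0.38 to 0.0108 for Dak, -0.0425 to 0.0295 for Got1, -0.0449 to 0.0579 for Slc4a4, -0.0084 to 0.31 for Foxo1 and -0.26 to 0.0022 for Hk1. The log2 ratio difference ran from -0.96 to -0.32 for Pck1 to Pck2. The cause of these shifts was not tested.

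With the replicate number as a block 130 genes were called, 3 of them pathway genes, the log2 fold change of Pck1 was -0.35, and the adjusted p was 0.0565 for Me1 and 0.0507 for Pdk3. The labels do not say that equal numbers share anything, so the numbers were not taken as pairs. The correlations of equally numbered mice were 0.206, 0.038, 0.199 and -0.0302. They were taken on values centred within each group, which forces both signs, so small values do not decide whether mice were paired. Aged mice 1, 2 and 3 correlated best with their own number and aged mouse 4 did not.

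Over 31 genes (the 8, the pathway genes named by the rule, Arntl and Dbp) and 17 alternatives, 457 log2 fold changes kept their direction and side of the threshold, 25 lost it, 7 gained it and 38 turned. These alternatives were not tabulated for the other genes named. With 4 mice in each group and the spread of aged mouse 1, the 95% interval of Pck1 included changes of over 1.5-fold both ways.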
